A study of Homo sapiens with 4 samples.

Results

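Fibrinogen is the soluble plasma protein that thrombin turns into the fibrin meshwork of a clot. It is built from paired copies of 3 chains, alpha, beta and gamma, encoded by FGA, FGB and FGG, which assemble in the endoplasmic reticulum before secretion. The liver is the main source, and interleukin-6 raises transcription of the chain genes there during the acute-phase response. Lung epithelial cells, A549 among them, can also make fibrinogen.

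A549, a line of lung adenocarcinoma cells from a human tumour, was grown as cell clusters in 2 groups. The shDUSP23 group carried a short hairpin RNA construct against the dual-specificity phosphatase gene DUSP23 (genotype label: DUSP23 knockdown), and the shMock group carried a control construct (genotype label: wild type). Each group had 2 RNA sequencing libraries, no agent, dose or time is given, and nothing states that the libraries came from separate cultures, so each p-value reflects nothing beyond how far these libraries lie apart, which may be technical. The rows named FGA, FGB or FGG were taken as members: 3 genes of 16371 and 10 transcripts of 56389, of which 2 belong to FGA, 5 to FGB and 3 to FGG.

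Values are the authors' FPKM (fragments per kilobase of transcript, scaled to library size), and a gene value is the sum over its listed transcripts. Multiplied by transcript length the values lay on whole steps, which returned 26997359 and 42236514 fragments for the shDUSP23 libraries and 21274749 and 25243742 for the shMock libraries. DUSP23 itself had 1.71 and 2.71 FPKM in shDUSP23, against 29.96 and 35.9 FPKM in shMock. The epithelial markers EPCAM, KRT8, KRT18, KRT19 and CDH1 summed to 1634 and 1716 FPKM in shDUSP23 and 2154 and 2111 FPKM in shMock. KRT8 and KRT18 made up most of that sum. CDH1 had 6.2 and 8.14 FPKM in shDUSP23 against 22.4 and 21.5 FPKM in shMock. EPCAM had 3.47 and 4 FPKM against 5.83 and 7.05 FPKM, and KRT19 overlapped between the groups. Of 7 hepatocyte markers 1, ASGR1, was listed, with 0.677 and 0.58 FPKM in shDUSP23 against 3.34 and 4.04 FPKM in shMock. The leukocyte marker list had 2 of 5 members listed and summed to 95.9 and 131.9 FPKM in shDUSP23 and 29.1 and 31.5 FPKM in shMock. CD68, a lysosomal protein gene, held most of that sum and PTPRC was not among the listed genes. CD14 went the other way, with 0.983 and 0.995 FPKM in shDUSP23 against 4.68 and 8 FPKM in shMock. The fibroblast list summed to 2.7 to 4.92 FPKM over all 4 libraries and 0 of 4 endothelial markers were listed. Platelet markers, of which 2 of 5 were listed, summed to 3.32 and 4.41 FPKM in shDUSP23 and 0.835 and 0.465 FPKM in shMock. Mitochondrial genes held 8.12% and 7.97% of FPKM in shDUSP23 and 12.3% and 13.07% in shMock. The part of these markers and shares in the results was not tested.

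The 3 genes lie side by side on chromosome 4 (GRCh38) within 49839 bases. FGB is listed from 154563011 to 154572807 on the plus strand. FGA is listed from 154583128 to 154590745 and FGG from 154604134 to 154612849, both on the minus strand. The RefSeq windows around their starts (GRCh38.p14, 250 bases before to 50 after) are shown because the 3 genes moved together and their liver promoters are known for C/EBP and interleukin-6 response sites. Capitals mark letters found on either strand of CTGGGAA (taken here as the core of interleukin-6 response elements) and TTNNGNAA (C/EBP). They lie at chr4:154590693-154590992 for FGA (minus strand), chr4:154562761-154563060 for FGB (plus strand) and chr4:154612607-154612906 for FGG (minus strand), printed 5′ to 3′ along each gene.
FGA: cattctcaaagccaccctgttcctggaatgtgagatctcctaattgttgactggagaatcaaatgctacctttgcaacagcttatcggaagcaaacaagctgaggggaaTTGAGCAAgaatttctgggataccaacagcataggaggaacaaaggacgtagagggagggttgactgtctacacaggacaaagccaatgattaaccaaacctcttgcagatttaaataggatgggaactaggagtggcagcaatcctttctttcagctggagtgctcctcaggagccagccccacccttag
FGB: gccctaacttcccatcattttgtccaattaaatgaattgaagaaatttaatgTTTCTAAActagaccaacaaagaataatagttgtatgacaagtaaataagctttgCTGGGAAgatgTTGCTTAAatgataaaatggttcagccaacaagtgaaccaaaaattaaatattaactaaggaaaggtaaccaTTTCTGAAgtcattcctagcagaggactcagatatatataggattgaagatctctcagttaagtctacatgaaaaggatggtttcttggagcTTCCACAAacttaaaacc
FGG: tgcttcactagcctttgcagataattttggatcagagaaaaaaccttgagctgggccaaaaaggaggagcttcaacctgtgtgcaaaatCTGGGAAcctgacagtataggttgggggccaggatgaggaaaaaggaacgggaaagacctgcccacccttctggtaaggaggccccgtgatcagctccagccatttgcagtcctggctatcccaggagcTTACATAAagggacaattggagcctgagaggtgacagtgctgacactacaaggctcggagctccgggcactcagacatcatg

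The letters CTGGGAA occurred in the FGB and FGG windows, and in 10.8% of 35116 RefSeq windows of the same length. The FGA window holds CTGGGAT, which differs in the last letter and was not marked, so a shorter core CTGGGA is present there. TTNNGNAA, a looser pattern, occurred once in FGA, in 4 places in FGB and once in FGG, and in 36.8% of all windows. A match is a stretch of letters and not a measured binding site. The FGA and FGB windows are placed on the listed starts of FGA-201 and FGB-201, whereas the RefSeq start of FGG lies 193 bases inside the listed start of FGG-203.

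All 3 chain genes were lower in the shDUSP23 clusters, by 7.73 to 13.9 times in mean FPKM, and no shDUSP23 library reached the level of a shMock library. FGA, the alpha chain gene, had 16.9 and 16.7 FPKM in shDUSP23, against 123.2 and 137 FPKM in shMock. FGB, the beta chain gene, had 20.5 and 19.9 FPKM in shDUSP23, against 232 and 271 FPKM in shMock. FGG, the gamma chain gene, had 10.6 and 9.26 FPKM in shDUSP23, against 114 and 161 FPKM in shMock. In each gene the shDUSP23 libraries lay close together, and the widest spread was that of FGG between the shMock libraries.

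By the group means FGA was 7.73 times lower in shDUSP23 (16.8 ± 0.162 against 130.1 ± 9.75 FPKM, SD, n = 2 libraries in each group). FGB was 12.5 times lower (20.2 ± 0.39 against 251 ± 26.9 FPKM) and FGG 13.9 times lower (9.93 ± 0.956 against 138 ± 33.4 FPKM). On log2(FPKM + 0.5) the change of FGA was -2.91 (SE 0.12, 95% interval -3.19 to -2.63), with a Benjamini-Hochberg adjusted p of 1.54e-05 in limma over all genes tested. The log2 change of FGB was -3.60 (SE 0.12, 95% interval -3.88 to -3.32, limma adjusted p = 5.83e-06). The log2 change of FGG was -3.71 (SE 0.18, 95% interval -4.11 to -3.31, limma adjusted p = 2.41e-05). Of 13691 genes tested, 22.2% were called lower and 23.1% higher, and 36.2% had both shDUSP23 libraries below both shMock libraries, so 3 of 3 stands against those shares. Ordered by log2 change from the deepest fall, FGG was 4th, FGB 6th and FGA 26th. When FPKM sums were made equal across libraries, an alternative called equal sums here, the median of all genes moved from 0.03 to 0.34 and the calls to 5276 higher and 1693 lower, against 3166 higher and 3036 lower as deposited, and the 3 genes stayed called. In bulk libraries fewer cells that make a transcript and less of it per cell cannot be told apart.

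**Figure D1:**
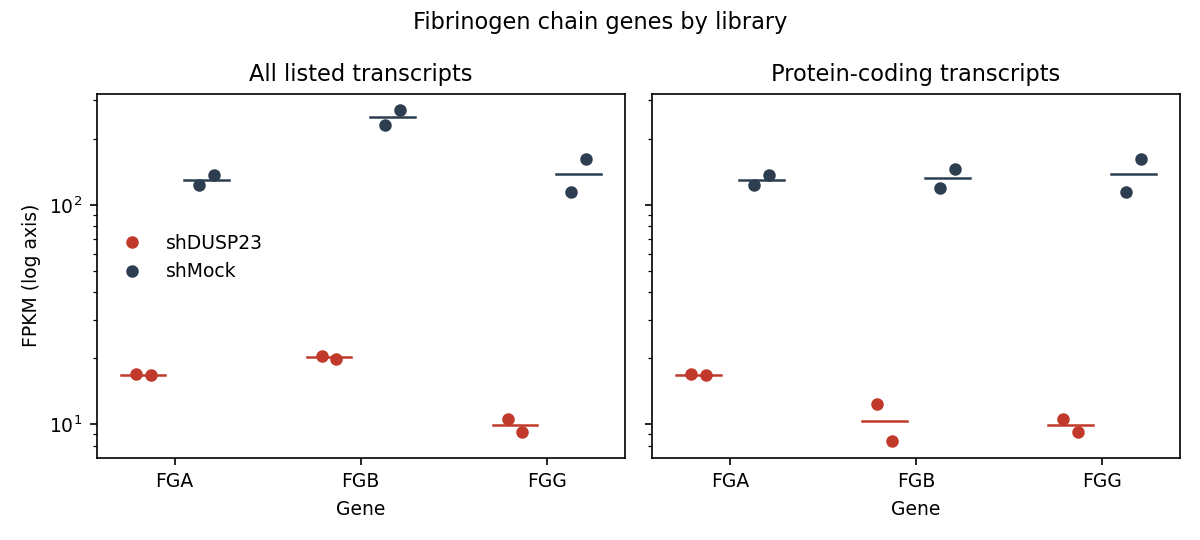
FPKM on a log axis of FGA, FGB and FGG in each library (points) with the group mean (line), for all listed transcripts (left) and protein-coding transcripts alone (right). The shDUSP23 points sit at 8.36 to 20.5 FPKM and the shMock points at 114 to 271 FPKM, and the protein-coding sums of the 3 chains are close to each other in shMock.

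Among all genes of a library the chains stood far lower in shDUSP23. The 3 genes together had 48.02 and 45.9 FPKM in shDUSP23, against 470 and 569 FPKM in shMock. That was 0.0109% and 0.0103% of all summed FPKM in shDUSP23, against 0.087% and 0.0984% in shMock. The total came from 2184 and 3130 fragments in shDUSP23 and 16191 and 23264 in shMock. By level among 16371 genes, FGB ranked 4307th and 4446th in shDUSP23, against 280th and 264th in shMock. FGA ranked 5096th and 5132nd, against 565th and 533rd, and FGG ranked 7038th and 7634th, against 617th and 439th.

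Fibrinogen holds equal numbers of each chain, and the chains' transcript levels per length can be set beside that. Summed over protein-coding transcripts alone, FGA, FGB and FGG had 123.2, 119.8 and 114 FPKM in shMock library 1 and 137, 145 and 161 FPKM in shMock library 2. In the shDUSP23 libraries the same sums were 16.9, 12.4 and 10.6 FPKM and 16.7, 8.36 and 9.26 FPKM, with FGA the highest in each. On this protein-coding scale the ratio of FGA to FGB was 1.36 and 2 in shDUSP23, against 1.03 and 0.943 in shMock. The ratio of FGG to FGA was 0.626 and 0.554 in shDUSP23, against 0.927 and 1.18 in shMock. The ratio of FGG to FGB was 0.854 and 1.11 in shDUSP23, against 0.953 and 1.11 in shMock, and the groups overlapped. In shMock the FGB sum on this scale was mostly FGB-207 (101 and 124 FPKM), which has 816 coding bases. FGB-201, with 1473 coding bases, had 18.4 and 21.2 FPKM there. With all listed transcripts FGB had 232 and 271 FPKM in shMock, so the near-equal sums depend on which transcripts are counted. They also depend on the authors' division of fragments among overlapping transcripts.

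FGA was the chain with the smallest fall in group means, on either sum. With all listed transcripts the ratio of FGA to FGB was 0.828 and 0.839 in shDUSP23, against 0.53 and 0.506 in shMock, a difference of 0.69 on the log2 scale. The ratio of FGG to FGA differed by -0.83 on the log2 scale, shDUSP23 minus shMock. In both ratios the groups did not overlap, and the exact two-sided permutation p was 0.333, the smallest that 2 against 2 libraries can give. For FGG to FGB the difference was -0.14 and the exact permutation p 0.667.

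FGA was represented by 2 transcripts. FGA-201 (ENST00000403106, protein-coding, 154585275 to 154590742) is the transcript of the common alpha chain and had 16.03 and 16.2 FPKM in shDUSP23, against 112 and 126 FPKM in shMock. FGA-203 (ENST00000651975, protein-coding) had 0.912 and 0.486 FPKM in shDUSP23, against 10.8 and 10.5 FPKM in shMock. It is listed down to 154583128, across the exon from 154583126 to 154584833 that GENCODE 29 gives to ENST00000302053, the transcript of the extended alpha-E chain. Taking the length of that transcript at the listed ends, 3655 bases, gave whole fragments in all 4 libraries, 90 and 75 in shDUSP23 and 840 and 973 in shMock. The alpha-E chain carries an extra carboxyl-terminal domain and is known as a minor form in adult plasma.

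The long form took a smaller share of FGA in shDUSP23. FGA-203 made up 5.38% and 2.91% of the FGA sum of FPKM in shDUSP23, against 8.77% and 7.70% in shMock. Of the fragments assigned to FGA it held 8.60% (exact 95% binomial interval 6.98% to 10.5%) and 4.72% (3.73% to 5.88%) in shDUSP23, against 13.7% (12.9% to 14.6%) and 12.1% (11.4% to 12.9%) in shMock. These intervals cover counting error only, and on fragments the shDUSP23 intervals lay below those of shMock. The test of isoform usage between libraries did not pass: the log2 change of FGA-203 relative to FGA-201 was -0.40 (SE 0.48; limma diffSplice, Benjamini-Hochberg adjusted p = 0.861). With limma-voom on the recovered fragments, chosen after the data were seen, it was -1.19 (SE 0.43, unadjusted p = 0.0228, adjusted p = 0.302). Of 32628 transcripts tested for usage 0.926% were called, 0.497% with a lower share and 0.429% with a higher one.

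FGB was spread over 5 transcripts of 3 biotypes. FGB-207 (ENST00000509493, protein-coding, 1164 bases) led with 11 and 7.67 FPKM in shDUSP23, against 101 and 124 FPKM in shMock. All 1164 bases also lie in the exons of FGB-201, so the lead of FGB-207 rests on the authors' division of shared fragments. FGB-201 (ENST00000302068), the transcript of the full-length beta chain, had 1.44 and 0.696 FPKM in shDUSP23, against 18.4 and 21.2 FPKM in shMock. Its listed end, 154572807, lies past the end at 154571086 in GENCODE 29, and a length of 3641 bases gave whole fragments in all libraries, against 1975 bases in GENCODE 29. FPKM divides by that longer length, so on assigned fragments FGB-201 held 20.8% and 12.5% of FGB in shDUSP23 and 24.3% and 23.9% in shMock, beside 7.06% and 3.49% in shDUSP23 and 7.90% and 7.83% in shMock on FPKM.

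The other FGB transcripts have no annotated coding sequence. FGB-203 (ENST00000473984, retained intron) had 3.01 and 5.16 FPKM in shDUSP23, against 38.03 and 33.5 FPKM in shMock. FGB-204 (ENST00000497097, retained intron) had 1.81 and 4 FPKM in shDUSP23, against 45.3 and 56.9 FPKM in shMock. FGB-206 (ENST00000502545, processed transcript) had 3.23 and 2.39 FPKM in shDUSP23, against 29.3 and 34.8 FPKM in shMock. Against the exons of FGB-201, FGB-203 holds 61 intron bases of 665 and FGB-204 holds 77 of 574, and all 1320 bases of FGB-206 lie in those exons. Most or all of their length thus also lies in the full-length transcript, and the division of fragments among them is the authors' estimate. On FPKM every library had a large noncoding part: 39.3% and 58.0% of the FGB sum in shDUSP23, against 48.5% and 46.3% in shMock. The shDUSP23 libraries lay on either side of the shMock libraries, and retained introns alone made up 23.5% and 46.0% in shDUSP23, against 35.8% and 33.4% in shMock. FPKM raises the part of short transcripts. On assigned fragments FGB-203 held 7.9% and 16.9% of FGB in shDUSP23, against 9.2% and 6.92% in shMock. FGB-204 held 4.09% and 11.3%, against 9.5% and 10.1%. FGB-206 held 16.8% and 15.5%, against 14.1% and 14.2%.

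FGG was represented by 3 protein-coding transcripts. FGG-203 (ENST00000404648), the transcript of the main gamma-A chain, had 8.14 and 8.07 FPKM in shDUSP23, against 98.5 and 139 FPKM in shMock. FGG-205 (ENST00000407946) had 0.906 and 1.19 FPKM in shDUSP23, against 15.1 and 22.2 FPKM in shMock. It holds 311 bases that lie in introns of FGG-203, and 287 of them are shared with ENST00000336098, the GENCODE 29 transcript of the gamma-prime chain, which was not analysed here. The gamma-prime chain arises by polyadenylation in the last intron and ends in an acidic tail that binds thrombin. FGG-205 made up 8.54% and 12.8% of the FGG sum in shDUSP23, against 13.2% and 13.8% in shMock.

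FGG-202 (ENST00000393846), a 641-base entry with an incomplete 3′ end in GENCODE 29, behaved differently from the rest. It had 1.56 and 0 FPKM in shDUSP23, against 0.66 and 0 FPKM in shMock, from 27, 0, 9 and 0 fragments in that order. It held 14.7% of the FGG sum in shDUSP23 library 1 and 0% in shDUSP23 library 2, against 0.578% and 0% in shMock. Its mean lay under the minimum of 1 FPKM and it was not tested.

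The other 9 transcripts were each called lower in shDUSP23, where 2.45% of 37453 tested transcripts were called lower, 1.7% were called higher and 28.9% had both shDUSP23 libraries below both shMock libraries. Their log2 changes ran from -2.85 (FGA-201, SE 0.12) to -3.99 (FGB-204, SE 0.37), and their limma Benjamini-Hochberg adjusted p from 0.0285 to 0.0304. FGB-201 changed by -3.73 (SE 0.33), FGB-207 by -3.54 (SE 0.22), FGG-203 by -3.77 (SE 0.20) and FGG-205 by -3.61 (SE 0.30). These adjusted p-values sit near the threshold, and every one of the 9 calls was lost when any single library was left out (adjusted p 0.0881 to 0.299), with the replicate number as a block (0.07 to 0.072) and without an intensity trend (0.112), where 0 of all transcripts were called. The gene sums kept their calls under each of these.

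Isoform usage was called for 0 of the 9. At an unadjusted p under 0.05 limma diffSplice also gave 0 of 9, and limma-voom gave the FGA pair. The largest values were those of FGB-203 and FGB-204, the retained-intron transcripts, which moved apart by 0.62 and -0.59 relative to the other FGB transcripts (SE 0.44 each; adjusted p = 0.676 and 0.696). For FGG-205 relative to FGG-203 the value was 0.16 (SE 0.53, adjusted p = 0.963).

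**Figure D2:**
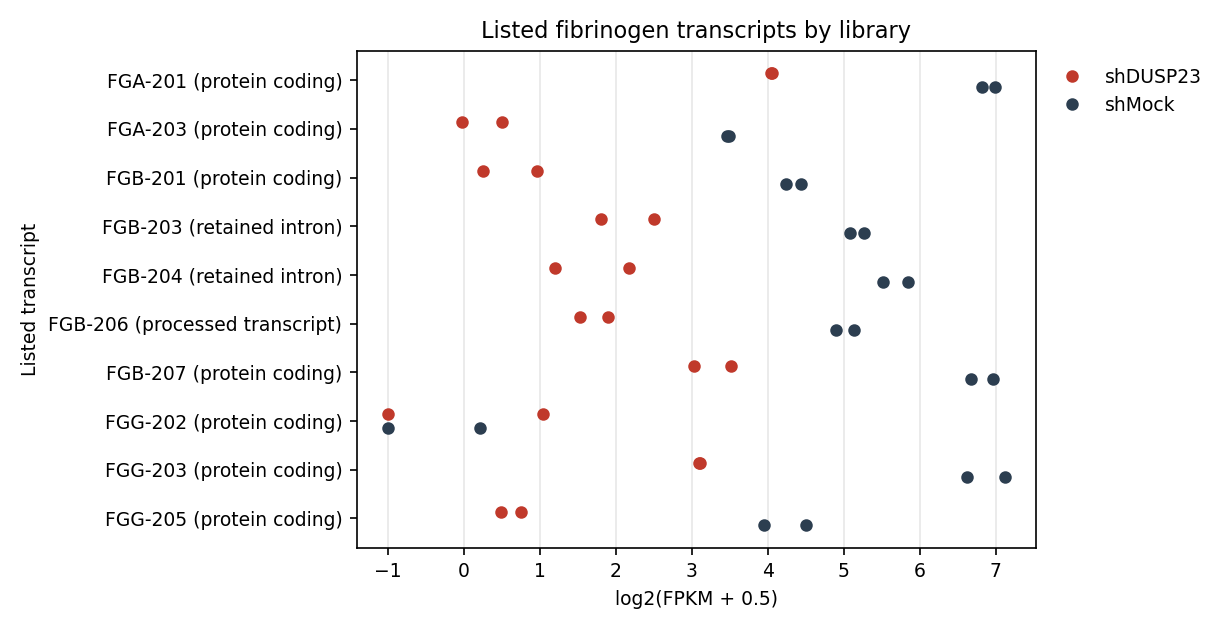
log2(FPKM + 0.5) of the 10 listed transcripts (rows, with biotype) in each library, shDUSP23 above shMock within a row. The groups are apart in 9 rows, and in FGG-202 they overlap, with a library of each group at 0.

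**Figure D3:**
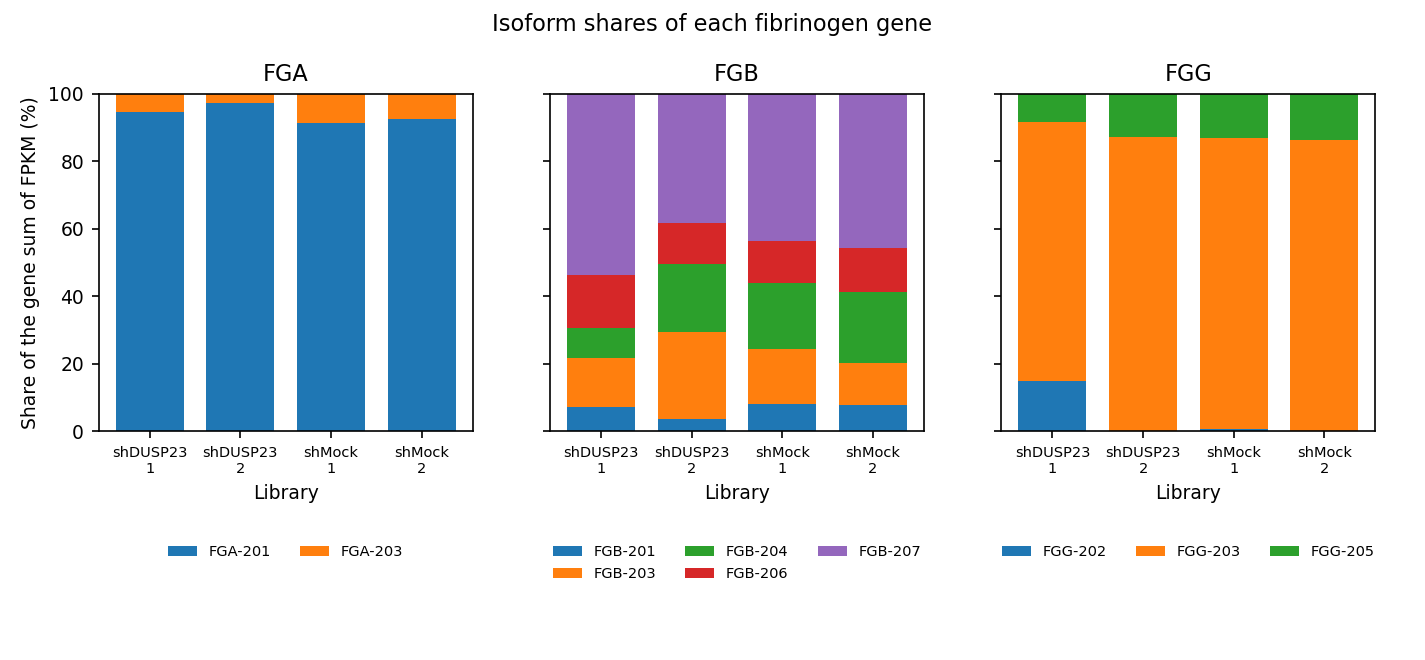
Share of each listed transcript in the gene sum of FPKM (bars to 100%) by library for FGA, FGB and FGG. FGA-203 is smaller in both shDUSP23 libraries (5.38% and 2.91% against 8.77% and 7.70%), and the shDUSP23 libraries differ from each other in FGB and in FGG-202.

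The genes beside the cluster changed far less. Within 1 Mb on either side the table listed 3 other genes. PLRG1, a spliceosome component whose start lies 12.6 kb from the FGB end of the cluster, had 36.3 and 25.6 FPKM in shDUSP23, against 42.4 and 40.9 FPKM in shMock (log2 change -0.44, SE 0.17, 95% interval -0.83 to -0.05, limma adjusted p = 0.0636). The call of PLRG1 depended on the setting, and limma-voom on fragments gave -0.63 with an adjusted p of 0.00295. MAP9, a microtubule-associated protein gene 764.1 kb from the FGG end, had 4.75 and 6.10 FPKM in shDUSP23, against 8.35 and 8.39 FPKM in shMock (log2 change -0.59, SE 0.20, limma adjusted p = 0.038). Its call did not hold with equal sums (-0.28, adjusted p = 0.296), without a filter (0.0554) or without either shMock library (0.159 and 0.176) or shDUSP23 replicate 1 (0.114). TLR2, a receptor for bacterial lipoproteins, had 1.11 and 1.25 FPKM in shDUSP23, against 0.363 and 0.638 FPKM in shMock, and was under the minimum for a test.

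Other genes with a fibrinogen-like domain did not share one direction. Apart from the chains, 6 listed members were tested. Of these 2 fell and 3 rose, beside 22.2% lower and 23.1% higher over all genes tested. FGL1, a liver-secreted fibrinogen-like protein, fell most, with 10.8 and 9.46 FPKM in shDUSP23 against 47.4 and 62.8 FPKM in shMock (log2 change -2.37, SE 0.17, limma adjusted p = 4.74e-05). ANGPT1, a ligand of the TIE2 receptor, had 0.368 and 0.453 FPKM in shDUSP23 against 1.84 and 2.36 FPKM in shMock. It passed the minimum mean of 1 FPKM through shMock alone, and some members that rose passed it through shDUSP23 alone. ANGPTL4, an inhibitor of lipoprotein lipase, rose, with 51.4 and 46.8 FPKM in shDUSP23 against 23.9 and 18.7 FPKM in shMock (log2 change 1.19, SE 0.15).

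Acute-phase proteins outside fibrinogen split. Of 24 listed by name 9 were tested, 4 rose and 5 fell, beside 23.1% higher and 22.2% lower over all genes tested. The median log2 change was -1.21, beside 0.03 over all genes tested. SERPINA3, the protease inhibitor alpha-1-antichymotrypsin, fell further than any chain gene, with 1.36 and 2.64 FPKM in shDUSP23 against 59.9 and 52.3 FPKM in shMock (log2 change -4.54, SE 0.24). CP, the copper-carrying ferroxidase ceruloplasmin, had 29.9 and 32.9 FPKM in shDUSP23 against 115 and 132 FPKM in shMock. AGT, angiotensinogen, had 1.16 and 2.80 FPKM in shDUSP23 against 9.75 and 11.5 FPKM in shMock. SERPINA1, alpha-1-antitrypsin, had 13.2 and 19.1 FPKM in shDUSP23 against 40.4 and 34.5 FPKM in shMock, and FTL, the ferritin light chain gene with many pseudogene copies, was the other member that fell.

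The members that rose were LCN2, C3, SAA1 and CFB. LCN2, the iron-siderophore-binding lipocalin, had 31.3 and 60.5 FPKM in shDUSP23 against 7.39 and 7.20 FPKM in shMock (log2 change 2.50, SE 0.27). The complement gene C3 had 145 and 179 FPKM in shDUSP23 against 96.02 and 94.4 FPKM in shMock. SAA1, serum amyloid A, had 4.15 and 3.61 FPKM in shDUSP23 against 1.27 and 1.38 FPKM in shMock. SAA1 missed the threshold with limma-voom (adjusted p = 0.0543), and CFB, complement factor B, missed it without shDUSP23 replicate 2 (0.109) and without an intensity trend (0.0543).

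Among other liver plasma proteins 7 of 24 were listed and 6 tested. Of these 1 rose and 2 fell, beside 23.1% higher and 22.2% lower over all genes tested. APOH, which binds phospholipid surfaces, had 2.24 and 4.4 FPKM in shDUSP23 against 13.1 and 20.7 FPKM in shMock. SERPINA6, the corticosteroid-binding globulin gene, was listed at 0 and 0.256 FPKM in shDUSP23 against 1.85 and 2.44 FPKM in shMock. It entered the test, at a minimum mean of 1 FPKM, through shMock alone, so its fall follows in part from that filter. APOE, apolipoprotein E, rose, with 8.58 and 10.2 FPKM in shDUSP23 against 4.43 and 4.96 FPKM in shMock. VTN, vitronectin, had 48.03 and 46.6 FPKM in shDUSP23 against 39.4 and 38.03 FPKM in shMock and did not pass (limma adjusted p = 0.0785), though it did with equal sums (0.00389).

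In the interleukin-6 family ligands and receptors were called in both directions. Of 20 tested members of that list 6 rose and 4 fell, near the shares over all genes (23.1% higher and 22.2% lower), with a median of 0.08 on the log2 scale. With equal sums 10 rose and 2 fell, where 5276 of all 13724 genes were called higher and 1693 lower. IL6, the ligand itself, had 60.6 and 70.98 FPKM in shDUSP23 against 40.2 and 32.6 FPKM in shMock (log2 change 0.85, SE 0.15, limma adjusted p = 0.00221). IL6R, its receptor chain, had 8.95 and 10.2 FPKM in shDUSP23 against 2.82 and 2.66 FPKM in shMock (log2 change 1.64, SE 0.20). IL11, a related cytokine, had 76.4 and 84.7 FPKM in shDUSP23 against 33.9 and 26.5 FPKM in shMock.

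Among the signalling members the kinase gene JAK1 rose, with 60.2 and 55.4 FPKM in shDUSP23 against 37.1 and 28.1 FPKM in shMock. SOCS3, a feedback inhibitor induced by STAT3, had 70.7 and 89.1 FPKM in shDUSP23 against 36.998 and 30.8 FPKM in shMock (log2 change 1.22, SE 0.15). SOCS1 was the other member that rose. PTPN11, the SHP2 phosphatase gene, IL11RA, CLCF1 and JAK2 fell, with log2 changes of -0.84, -1.11, -0.57 and -0.41. JAK2 and CLCF1 were no longer called after equal-sum scaling (adjusted p = 0.712 and 0.225) or without either shMock library, JAK2 also without shDUSP23 replicate 2 (0.122) and CLCF1 without shDUSP23 replicate 1 (0.0506), and IL11RA lost its call without shMock replicate 2 (0.0653). STAT3, the factor that carries the signal, had 43.4 and 43.1 FPKM in shDUSP23 against 46.01 and 37.9 FPKM in shMock (log2 change 0.05, 95% interval -0.26 to 0.36, adjusted p = 0.784). IL6ST, the shared signalling chain gp130, had 131 and 108.5 FPKM in shDUSP23 against 104.7 and 106.1 FPKM in shMock, and its log2 change of 0.18 was not called (limma adjusted p = 0.279). It was called higher with equal sums (0.51, adjusted p = 0.0093) and lower with protein-coding transcripts alone (-0.43, adjusted p = 0.0388).

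Transcription factors of the liver and acute-phase programme moved by smaller amounts than the chain genes. Of 13 tested 4 rose and 2 fell, beside 23.1% higher and 22.2% lower over all genes tested. With equal sums 6 rose and 0 fell, where 5276 of all 13724 genes were called higher and 1693 lower. HNF4A had 9.82 and 13.2 FPKM in shDUSP23 against 9.05 and 9.39 FPKM in shMock (limma adjusted p = 0.235, and 0.0255 with equal sums). CEBPB, a mediator of the interleukin-6 response, had 50.2 and 61.8 FPKM in shDUSP23 against 74.99 and 70.8 FPKM in shMock (log2 change -0.38, adjusted p = 0.0457), and it lost its call in 9 of 16 alternatives, among them equal sums (-0.05) and leaving out shMock replicate 1, shMock replicate 2 or shDUSP23 replicate 1.

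CEBPA rose, with 7.28 and 7.91 FPKM in shDUSP23 against 3.09 and 3.61 FPKM in shMock (log2 change 1.07, SE 0.20). GATA6 had 7.23 and 7.70 FPKM in shDUSP23 against 3.54 and 2.75 FPKM in shMock, FOXA1 had 6.14 and 5.67 FPKM against 3.24 and 2.54 FPKM, and NR5A2 had 22.5 and 21.8 FPKM against 15.2 and 15.8 FPKM. FOXA2, a pioneer factor of endoderm, had 5.75 and 5.74 FPKM in shDUSP23 against 8.72 and 8.84 FPKM in shMock (log2 change -0.57). NR5A2 lost its call without either shMock library, FOXA1 without shMock replicate 2, and FOXA2 without either shMock library and with equal sums (adjusted p = 0.30).

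**Figure D4:**
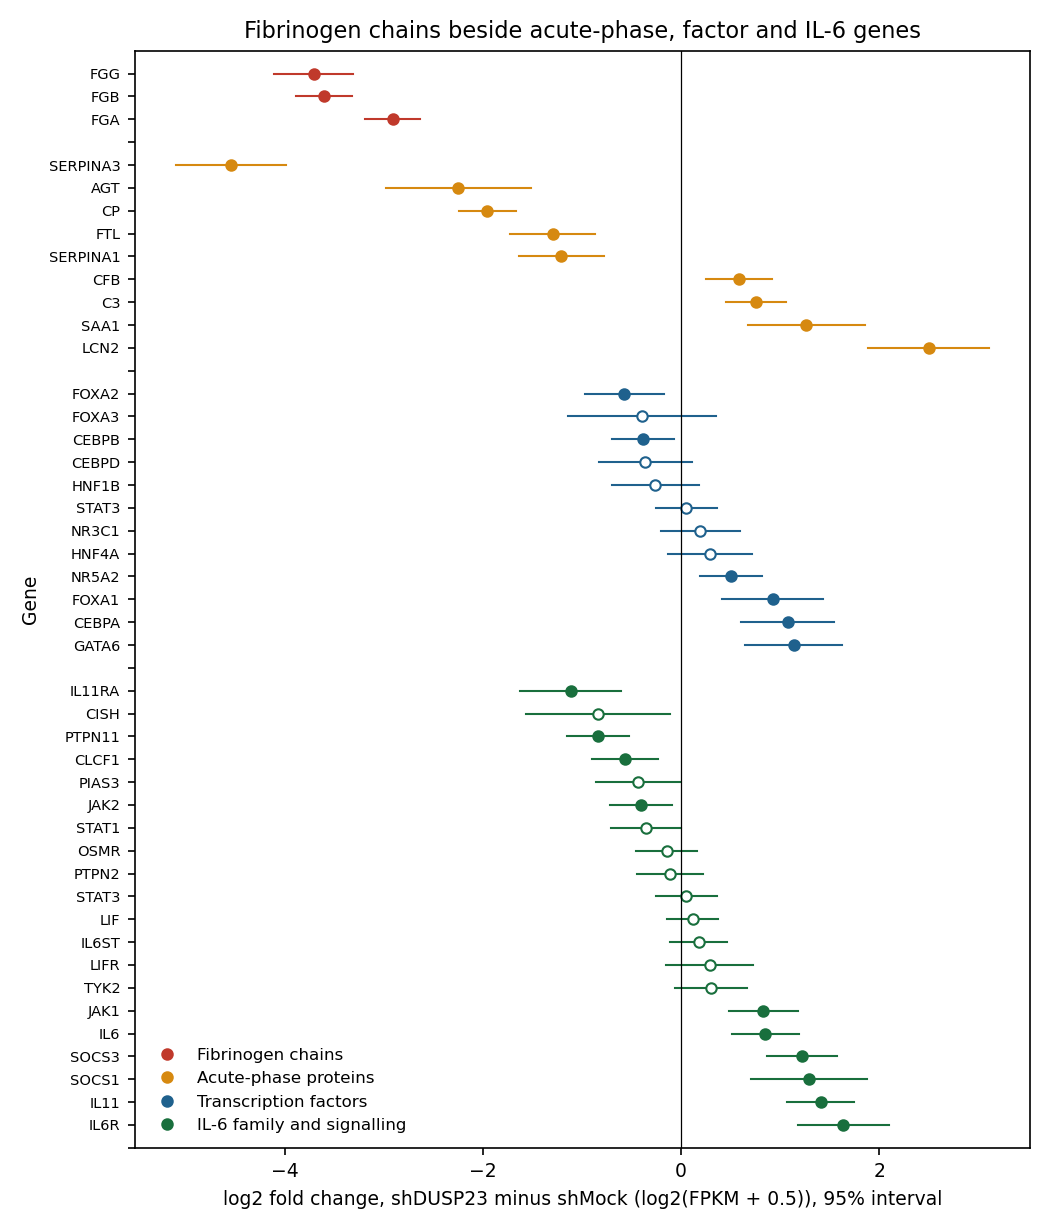
log2 fold change, shDUSP23 minus shMock, with its 95% interval, for tested members of 4 lists, with filled points for genes called at an adjusted p under 0.05. The chain genes lie between -3.71 and -2.91, the acute-phase genes on both sides of 0, and the factor and interleukin-6 genes between -1.11 and 1.64.

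Genes of the clotting cascade and of fibrin breakdown were called in both directions. In the clotting list 14 were tested, 1 rose and 5 fell, beside 23.1% higher and 22.2% lower over all genes tested. With equal sums 5 rose and 2 fell, where 5276 of all 13724 genes were called higher and 1693 lower. F3, tissue factor, had 2.22 and 2.36 FPKM in shDUSP23 against 15.3 and 10.4 FPKM in shMock (log2 change -2.23, SE 0.23). F5, the thrombin-activated cofactor of the prothrombinase complex, had 0.332 and 0.118 FPKM in shDUSP23 against 2.46 and 2.49 FPKM in shMock. It too passed the minimum mean of 1 FPKM through shMock alone. PROS1, the anticoagulant cofactor protein S, had 30.5 and 31.1 FPKM against 46.8 and 51.97 FPKM and missed the threshold after equal-sum scaling (adjusted p = 0.058). F8, the cofactor of factor IX, rose, with 12.7 and 9.78 FPKM in shDUSP23 against 5.34 and 4.54 FPKM in shMock.

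In the fibrin breakdown list 10 were tested, 4 rose and 4 fell, beside 23.1% higher and 22.2% lower over all genes tested. PLAU, the urokinase plasminogen activator, rose, with 91.5 and 128.9 FPKM in shDUSP23 against 58.4 and 50.2 FPKM in shMock. SERPINE2, an inhibitor of thrombin and urokinase, fell, with 15.2 and 14 FPKM in shDUSP23 against 30.1 and 23.6 FPKM in shMock. ENO1 and ANXA2, whose proteins bind plasminogen or its activator at the cell surface, had log2 changes of -0.92 and -0.74, which became -0.078 and 0.19 with quantile normalization, and ANXA2 missed the threshold without shDUSP23 replicate 1 (limma adjusted p = 0.0542).

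Of 9 tested genes for receptors of fibrinogen or fibrin, most encoding single integrin chains, 5 rose, 1 fell and 3 were not called. Over all genes tested 23.1% were called higher and 22.2% lower. The median log2 change of the 9 genes was 1.31, beside 0.03 over all genes tested, and the list itself was not tested. ITGB2, another integrin chain of that list, was not among the listed genes, and whether whole receptors changed was not tested. ITGAX, the alpha X integrin chain known from myeloid cells, had 23.7 and 25.002 FPKM in shDUSP23 against 2.15 and 2.25 FPKM in shMock (log2 change 3.20, SE 0.17). ITGA5 had 173 and 197 FPKM in shDUSP23 against 58.4 and 44.8 FPKM in shMock, and ICAM1 had 75.9 and 96.3 FPKM against 30.6 and 26.1 FPKM. ITGB1, the member that fell, had 376 and 378 FPKM in shDUSP23 against 624 and 590.2 FPKM in shMock, and its log2 change of -0.69 became 0.04 with quantile normalization.

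Secreted glycoproteins such as fibrinogen need chaperones and disulfide isomerases for assembly. In that list 24 were tested, 1 rose and 9 fell, beside 23.1% higher and 22.2% lower over all genes tested. The median was -0.05 on the log2 scale. With equal sums 9 rose and 4 fell, where 5276 of all 13724 genes were called higher and 1693 lower. HSP90B1, the chaperone GRP94, had 143 and 153 FPKM in shDUSP23 against 429 and 461 FPKM in shMock (log2 change -1.58, SE 0.11). PDIA6 and PDIA4, disulfide isomerases, had log2 changes of -1.27 (SE 0.11) and -1.22 (SE 0.12). SAR1A, a GTPase of export vesicles, rose by 0.72 (SE 0.11).

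The genes whose pattern over the 4 libraries lay nearest to each chain gene were taken by the Euclidean distance of log2(FPKM + 0.5), each minus its shMock mean, among genes with at least 10 FPKM in shMock. FGG was the nearest gene to FGB (distance 0.27, among 7178 candidates) and FGB the nearest to FGG. Next to FGB stood DUSP23, the targeted gene itself (0.415), NUF2, a kinetochore gene (0.563), and RARRES1, a retinoic acid receptor responder (0.623). The same 3 genes stood after FGB in the order around FGG, at distances of 0.55 to 0.862. FGA ranked 8th from FGB (0.978) and 9th from FGG (1.16). In the order around FGA, FGB ranked 48th and FGG 61st at those same distances. The distance takes in the size of the fall, which was smaller in FGA. Since candidates were chosen by their shMock level and set against their shMock mean, near genes are mainly those with a fall of similar size. NUF2 had 1.07 and 0.456 FPKM in shDUSP23, close to the 0.5 added. A link of DUSP23 or any other near gene to the chains was not tested by the distance. The genes nearest to FGA were PCLAF, a PCNA-binding factor (0.117), the complement gene C5 (0.195), PTTG1, the securin (0.244), HJURP, a chaperone of centromeric histone (0.318), and CCL26, a chemokine (0.371). Each distance rests on 4 libraries and describes them.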

How the data were processed

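The authors deposited FPKM for each Ensembl transcript in each library. The submitters' processing notes list STAR 2.7.1a, DESeq2 1.32.0 and GRCh38. Which program gave the FPKM, on which annotation, with what strand setting and filter, is not stated there.

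Gene values are sums over listed transcripts. Transcript lengths came from GENCODE 29 (93.7% of listed transcripts), with the end exons moved to the listed ends. FPKM times length gave whole fragments (within 0.1, for values up to 50) for 99.4% to 99.5% of values per library. Features with a mean of at least 1 FPKM were tested on log2(FPKM + 0.5), which understates the change of low genes, with limma 3.58.1 under R 4.3.3, using eBayes and its intensity trend. Features were called at an adjusted p (Benjamini-Hochberg, all features tested, two-sided) under 0.05. Isoform usage was tested with limma's diffSplice. The fits were run on simulated data with the same spread for every feature. That check cannot show their error rates under the unequal spreads of these data. Alternatives were other pseudocounts, filters and scalings, no trend, a replicate block, each library left out, protein-coding transcripts alone and, added after the data were seen, limma-voom on the recovered fragments.

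The members, gene lists and tests were chosen with earlier results of these data known. Named were the members, DUSP23, from each list the 4 with the smallest p, tested members of the acute-phase, transcription factor and interleukin-6 lists, neighbours within 1 Mb and the 5 nearest patterns per chain gene. ANGPT1 was named after its values were seen. Of the genes this rule names, 2 are not reported here. Tables and figures were made with Python 3.11.15, pandas 2.3.3, scipy 1.17.1 and matplotlib 3.10.9. Promoter windows are from RefSeq (GRCh38.p14).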

Additional observations from a re-analysis of the deposited data

How the results depend on the processing

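FGA, FGB and FGG kept their direction and their call in all 16 alternatives, with log2 changes of -2.99 to -2.58, -3.74 to -3.27 and -3.96 to -3.38 and a highest limma adjusted p of 0.0023. The count of genes called, 6202, became 3464 to 6442 when each library was left out, with 4038 without shMock replicate 1 and 3464 without shMock replicate 2. The count of transcripts called, 1554, became 463 with no filter, 3408 with a mean of at least 5 FPKM, 2468 with limma-voom and 0 without an intensity trend, where 8756 had an unadjusted p under 0.05. It was 0 to 0 when each library was left out (4768 to 11582 unadjusted). The count of isoform usage calls, 302, became 91 with a mean of at least 5 FPKM, 192 with limma-voom and 2 to 2381 when each library was left out (2 without shMock replicate 1, 5 without shMock replicate 2, 2381 without shDUSP23 replicate 1). The cause of these shifts was not tested. No usage value exists without an intensity trend, since diffSplice uses none.

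Same-numbered libraries did not deviate together (r = 0.053 over 13691 genes). The deposited column names share a number between the same replicate of both groups, and whether it marks a pair is not stated. The main fit was unpaired. With the replicate block 6707 genes, 0 transcripts (8772 unadjusted) and 64 usage values were called.

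The uncalled value of STAT3 turned its direction (-0.012 with median-ratio scaling, -0.088 to 0.19 with each library left out). IL6ST became -0.43 with protein-coding transcripts alone (adjusted p 0.0388) and 0.51 with equal sums (0.0093), and ANXA2 and ITGB1 became 0.19 and 0.040 with quantile normalization. Usage of FGA-201 and FGA-203 became -0.019 and 0.019 with a pseudocount of 1. With a pseudocount of 0.1 FGB-207, FGG-203 and FGG-205 gave 0.15, 0.18 and -0.18, and with limma-voom 0.13, 0.23 and -0.23. FGB-207 gave 0.047 with quantile normalization and FGG-205 gave -1.93 with no filter. With each library left out FGB-201 gave -0.71 to 0.19 and FGB-207 -0.35 to 0.29.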
